A study of Drosophila melanogaster with 24 samples.

Results

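The genes described here are 8 cell death genes of Drosophila melanogaster, found by their symbols among the 17768 genes of the deposited count table: rpr, hid, grim, skl, Diap1, Dronc, Drice and Dcp-1. All 8 were found, 1 row each. RNA was sequenced from whole male flies aged 1 to 7 days in 24 libraries, 4 for each of 6 groups. The groups were wild type flies of the yw line, flies heterozygous for a deletion of Rel (+/Reldel) and homozygous flies (Reldel/Reldel), each either uninjured or frozen 4 h after traumatic brain injury. All 3 genotypes were described as being in the yw background, and Rel encodes Relish, the NF-kB factor of the Imd immune pathway. The comparisons ask whether brain injury changes the transcripts of the death machinery and whether Rel genotype alters that. Nothing in the labels states that the 4 libraries of each group are separate cultures or pools of flies, so the p-values measure only the spread between these libraries, which may be technical.

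In flies, apoptosis is held in check by Diap1, a ubiquitin ligase that binds caspases and blocks them. Reaper (rpr), Hid, Grim and Sickle (skl) are antagonists that bind Diap1 and release the caspases, and their genes are switched on by developmental signals, radiation and stress. Dronc is the initiator caspase that is activated on the Dark scaffold and cleaves the effector caspases Drice and Dcp-1. The caspases are made as inactive precursors, so their transcript levels measure supply and not activity.

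The 4 antagonist genes lie in 1 cluster of 272 kb on chromosome arm 3L (build dm6, Ensembl release 115 coordinates), all on the minus strand. hid spans 18167745 to 18185641, grim 18302719 to 18304417, rpr 18397535 to 18398435 and skl 18438561 to 18439942. Diap1 (16038410 to 16051034, minus strand) and Dronc (9968479 to 9971002, plus strand) are also on 3L, Drice is on 3R and Dcp-1 on 2R. No sequence is printed for any of them.

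Totals ran from 6543632 to 14660491 counts per library. Levels are CPM, counts scaled to the effective library size, and a gene with 3 counts would stand at 0.203 to 0.465 CPM depending on the library; 13868 genes passed the filter on low counts. Rel itself checked the labels: its mean was 69.8 CPM in uninjured wild type, 38.8 in uninjured heterozygotes and 0.0249 in uninjured homozygotes, with 1 count in all 8 homozygous libraries together. Markers of testis (9 of 9 genes) and accessory gland (6 of 6) were detected in all 24 libraries. The female and ovary markers summed to 5.62 to 14.4 CPM in 23 libraries and to 408.9 CPM in library 4 of injured wild type, where 14 of 15 were detected. Library 1 of injured homozygotes also stood apart: its mean correlation with its own group was 0.952, against 0.971 to 0.984 in the other 23 libraries, and its neuronal markers summed to 1990 CPM against 737.9 to 970.3 in the other 3. Where leaving out either library changed a call that is given here for a cell death gene, the value without it is given.

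Of the 8 genes, 7 passed the filter and were tested, and grim did not. Set per kilobase of transcript and averaged over the 24 libraries, Diap1 stood at 92.7 ± 17.7 CPM per kb (SD, n = 24), Drice at 8.18 ± 1.05 and Dronc at 7.18 ± 1.26. Dcp-1 followed at 3.41 ± 0.839 CPM per kb, hid at 2.43 ± 0.515, rpr at 1.39 ± 0.780, skl at 1.34 ± 0.470 and grim at 0.292 ± 0.294. The inhibitor was thus the most abundant transcript and the antagonists the scarcest. The ranges over libraries did not overlap between Diap1 and Drice or between Dronc and Dcp-1, and they overlapped for every other pair of neighbours in this order. Drice was above Dronc in 18 of 24 libraries and rpr above skl in 12 of 24.

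**Figure D1:**
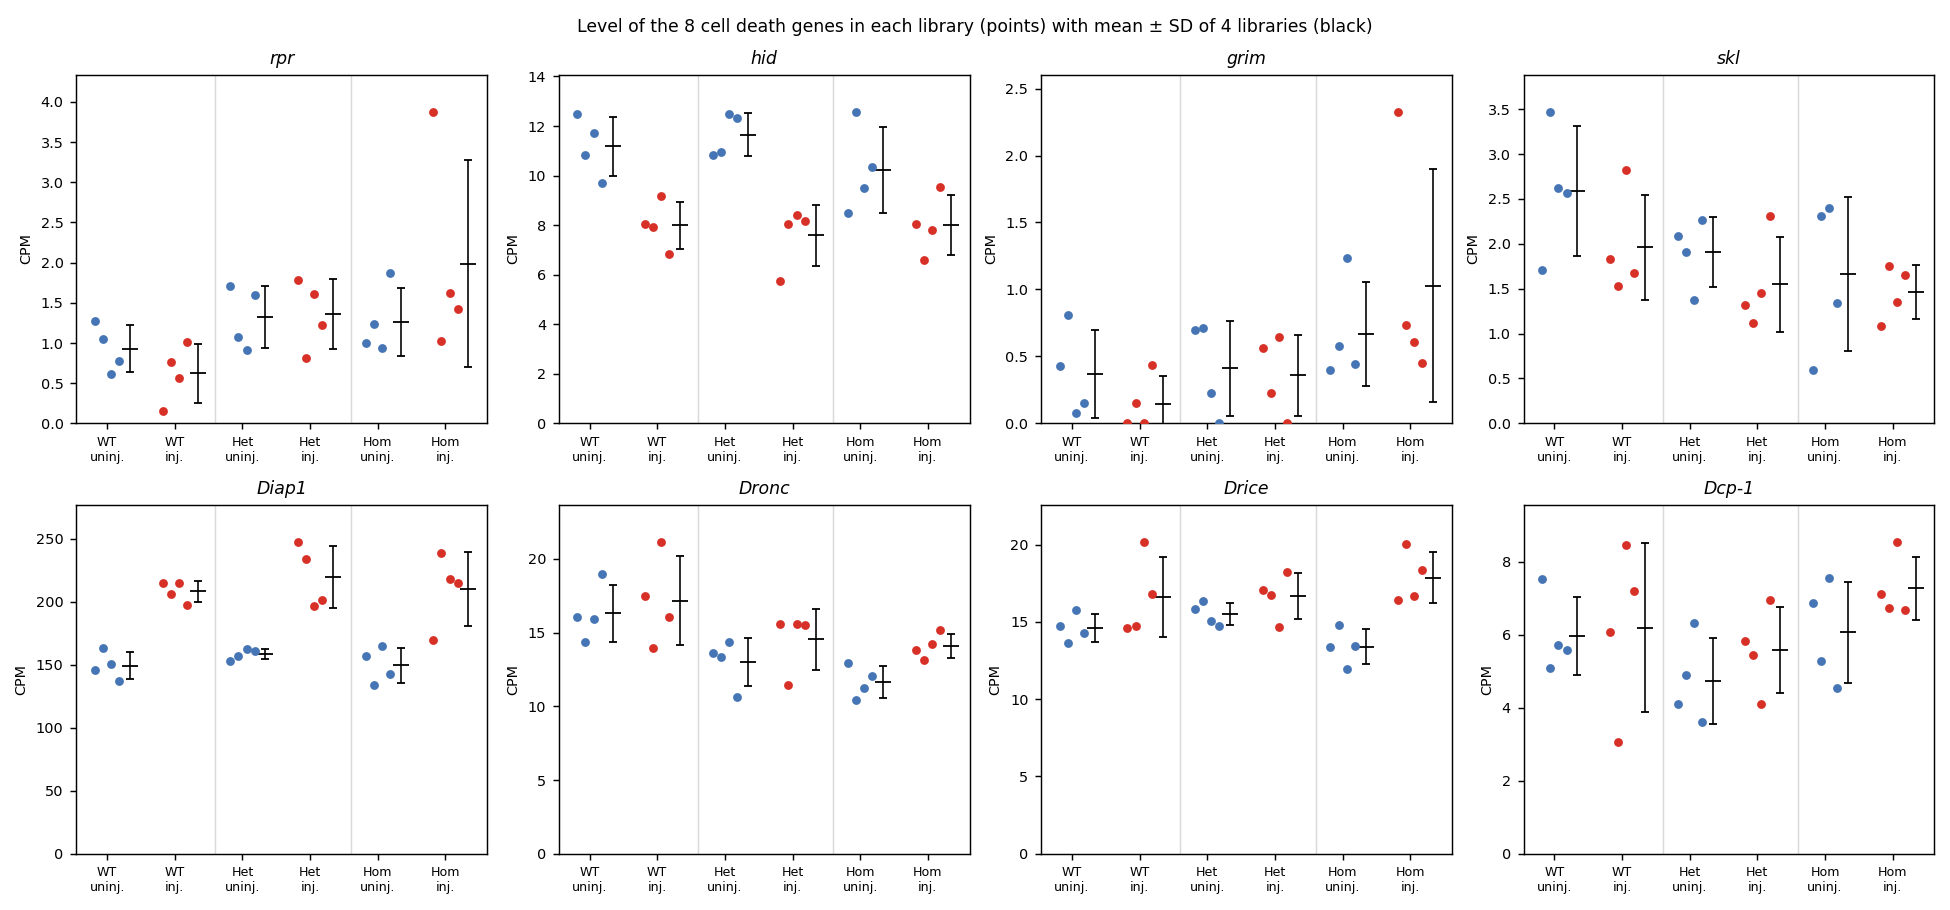
Level of each of the 8 genes in CPM (vertical axis, from 0) in the 24 libraries (points, blue uninjured and red injured; WT wild type, Het +/Reldel, Hom Reldel/Reldel) with the mean ± SD of 4 libraries in black. Diap1 was higher in every injured group, between 169 and 247 CPM, than in its uninjured group, between 134 and 165 CPM.

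Diap1 rose after injury in all 3 genotypes by about the same amount. In uninjured wild type the 4 libraries had 146, 163, 150 and 137 CPM, and in injured wild type 215, 206, 215 and 197 CPM. In heterozygotes they had 153, 157, 162 and 161 CPM uninjured and 247, 234, 196 and 201 CPM injured. In homozygotes they had 157, 134, 165 and 142 CPM uninjured and 169, 239, 218 and 215 CPM injured. Every injured library was above every uninjured library of its genotype, and the lowest injured value, 169 CPM, was that of homozygous library 1.

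The log2 fold change of Diap1 was 0.48 ± 0.11 (SE) in wild type (adjusted p = 0.00761), 0.47 ± 0.11 in heterozygotes (adjusted p = 0.00855) and 0.49 ± 0.11 in homozygotes (adjusted p = 0.00512), by edgeR's quasi-likelihood test with Benjamini-Hochberg adjustment over all genes tested. Averaged over the 3 genotypes it was 0.48 ± 0.06, a 1.40-fold rise (adjusted p = 3.22e-06). The wild type call was lost without uninjured wild type library 4 (0.42, adjusted p = 0.0752). When only the 8 libraries of the groups compared were fitted, the calls in heterozygotes (adjusted p = 0.0826) and homozygotes (0.109) were lost, with log2 fold changes of 0.47 and 0.50. The authors' deposited table gives adjusted p-values of 0.00419 in wild type, 0.0746 in heterozygotes and 0.116 in homozygotes for Diap1. Without library 1 of injured homozygotes the rise there was 0.58 (adjusted p = 4.57e-04), and without library 4 of injured wild type the wild type rise was 0.51 (adjusted p = 0.0139).

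Diap1 did not pass the test in any comparison between genotypes. Homozygotes minus wild type was 0.003 ± 0.105 on the log2 scale in uninjured flies, with a 95% interval of -0.22 to 0.22, and 0.01 ± 0.11 in injured flies, with an interval of -0.20 to 0.23. The difference of the injury responses was 0.01 for homozygotes minus wild type, with an interval of -0.30 to 0.32. Within whole flies, a change in the number of cells that express a gene and a change of RNA per cell cannot be told apart, here and in all that follows. Diap1 has 3 genes most like it over the 24 libraries among 11081 genes compared: Spn55B (Pearson r = 0.97), ALiX (0.96) and SH3PX1 (0.96), as a description across libraries that share the groups and the injury.

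By estimated counts, the rise of Diap1 was larger for Diap1-RB, which has its own start site, than for Diap1-RA. Diap1-RA rose as well, and the difference was not tested. The gene has 6 annotated transcripts with the same coding ends, and the counts of each are estimates that divide shared reads among them. Diap1-RA, the most abundant, and Diap1-RE start at 16046846, Diap1-RB starts 3825 bases upstream at 16050671 and Diap1-RF at 16051034. Diap1-RC and Diap1-RD start inside the gene, 4276 and 6311 bases downstream of Diap1-RA.

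Diap1-RB stood at 44.7, 50.2, 37.1 and 31.9 CPM in the 4 uninjured wild type libraries and at 78.6, 73.3, 83.3 and 73.8 CPM in the injured ones. It went from 46.2 ± 5.52 CPM (SD, n = 4) to 81.0 ± 12.0 in heterozygotes and from 47.3 ± 9.80 to 87.1 ± 14.0 in homozygotes. The injured and uninjured libraries did not overlap in any genotype.

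At the level of transcripts, 26667 were tested, and 3 of the 12 tested transcripts of the 8 genes were called for injury averaged over the genotypes, against 6.12% of all. Diap1-RB rose by 0.87 ± 0.09 on the log2 scale (adjusted p = 2.50e-06), Diap1-RA rose by 0.27 ± 0.07 (adjusted p = 0.0148), and hid-RA is the other. Within genotypes, a comparison of transcripts added after the data were seen, 1 of the 12 was called in wild type (0.986% of all), 2 in heterozygotes (0.971%) and 1 in homozygotes (1.42%). Diap1-RB was called in each, with 0.91 in wild type (adjusted p = 0.00435), 0.81 in heterozygotes (adjusted p = 0.0129) and 0.88 in homozygotes (adjusted p = 0.00488), and hid-RA was the other in heterozygotes. Diap1-RA missed the threshold in each of them, with values of 0.28, 0.29 and 0.25 and adjusted p-values of 0.455, 0.345 and 0.354, although without injured homozygous library 1 it passed there (0.40, adjusted p = 0.00788). The difference between the changes of these transcripts was not tested.

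The share of Diap1 counts given to Diap1-RB went from 27.3% ± 3.87 to 37.2% ± 1.56 in wild type (SD, n = 4 libraries), from 28.8% ± 2.80 to 36.7% ± 2.04 in heterozygotes and from 31.4% ± 4.00 to 42.1% ± 5.80 in homozygotes. In each genotype every injured library had a larger share than every uninjured one. The call of Diap1-RB in heterozygotes was lost without uninjured library 2 (adjusted p = 0.0640) and without injured library 2 (0.0521).

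A minor transcript, Diap1-RD, had no counts in homozygotes of either injury state. Its change with injury was not resolved, with a confidence interval of -3.05 to 3.05 on the log2 scale averaged over the genotypes. Diap1-RD had 49, 85, 68 and 36 counts in uninjured wild type and 52, 54, 45 and 38 in injured wild type. Heterozygotes had 17, 3, 69 and 67 counts uninjured and 76, 28, 38 and 7 injured. It had 0 counts in all 8 homozygous libraries. Heterozygous libraries thus ranged from near 0 to the wild type level, and no homozygous library had a read assigned to it.

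With 3 counts assumed over the 4 libraries of a homozygous group, uninjured wild type was at least 82.4-fold higher and injured wild type at least 64.6-fold higher, and heterozygotes at least 53.3-fold and 47.3-fold higher. These bounds cover counting error only. Diap1-RD was called for homozygotes minus wild type averaged over the injury states (adjusted p = 1.10e-05), and Dronc-RA, the only transcript of Dronc, was the other of 2 called (-0.39 ± 0.10, adjusted p = 0.0313), against 3.97% of all transcripts. No transcript of the 8 genes was called for heterozygotes minus wild type (0.431% of all); Diap1-RD was -0.71 ± 0.53 there (adjusted p = 0.873). Diap1-RD held 3.63% ± 1.18 (SD, n = 4) of Diap1 counts in uninjured wild type, so its loss moves the gene's total by little.

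**Figure D2:**
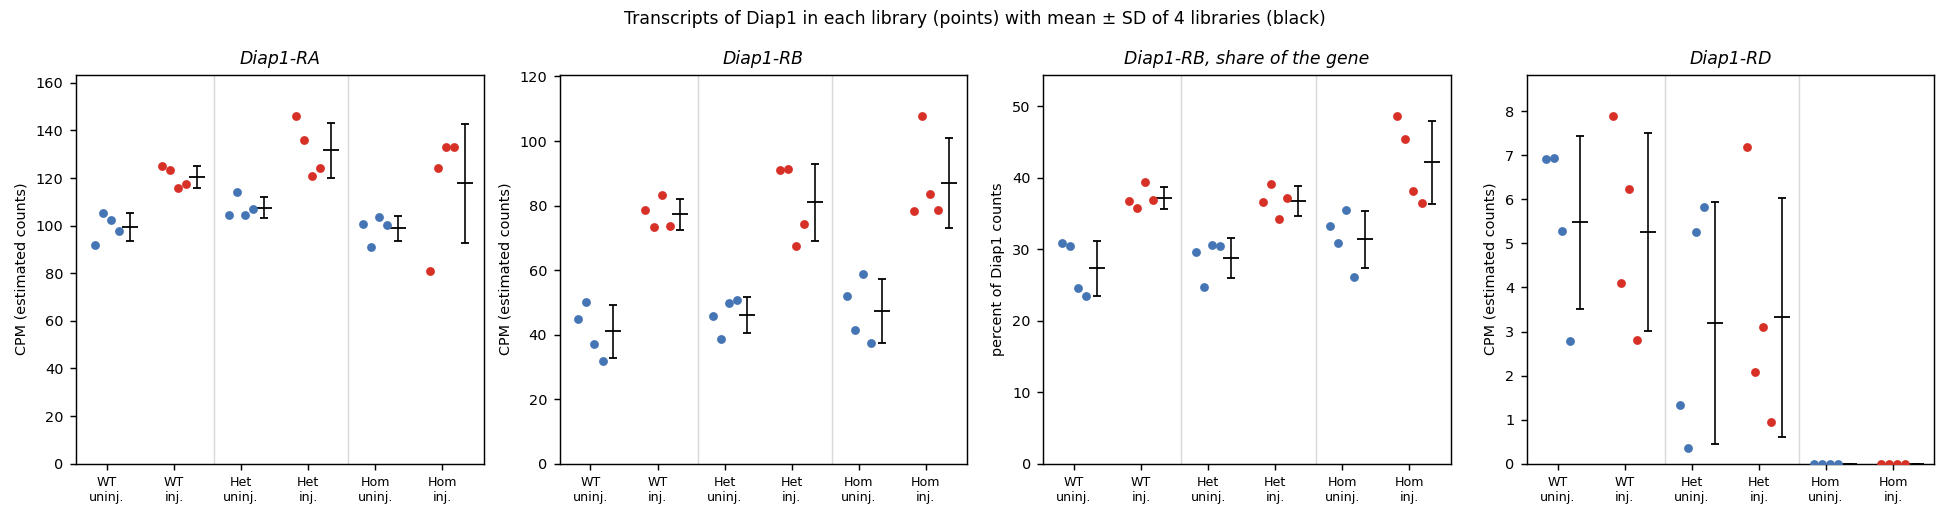
Estimated counts of Diap1-RA, Diap1-RB and Diap1-RD as CPM, and the percent of Diap1 counts given to Diap1-RB, in each library (points, blue uninjured and red injured; WT wild type, Het +/Reldel, Hom Reldel/Reldel) with mean ± SD of 4 libraries in black; vertical axes start at 0. Diap1-RB rose after injury in all 3 genotypes, and Diap1-RD is at 0 in all 8 homozygous libraries.

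Among the antagonists, hid moved the opposite way from Diap1 after injury. The 4 uninjured wild type libraries had 12.5, 10.8, 11.7 and 9.71 CPM and the injured ones 8.07, 7.94, 9.16 and 6.84 CPM. Uninjured heterozygotes had 10.8, 11.0, 12.5 and 12.3 CPM and injured ones 5.74, 8.05, 8.39 and 8.17 CPM. Uninjured homozygotes had 8.47, 12.6, 9.51 and 10.3 CPM and injured ones 8.06, 6.58, 7.79 and 9.54 CPM. Injured libraries were lower than all uninjured ones in wild type and heterozygotes, and the groups overlapped in homozygotes.

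hid fell by 0.48 ± 0.09 on the log2 scale averaged over the 3 genotypes (adjusted p = 3.17e-04) and by 0.62 ± 0.15 in heterozygotes (adjusted p = 0.0158). It missed the threshold in wild type (-0.49 ± 0.15, adjusted p = 0.0827) and in homozygotes (-0.35 ± 0.15, adjusted p = 0.177). The heterozygous call was lost without injured library 1, the lowest (-0.51, adjusted p = 0.0562), and when only the 8 heterozygous libraries were fitted (adjusted p = 0.0833); the authors' deposited table gives 0.0412. Without injured wild type library 4 the wild type value was -0.41 (adjusted p = 0.230).

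The genotypes did not differ detectably in the response of hid: the difference was -0.13 for heterozygotes minus wild type, with a 95% interval of -0.58 to 0.31, and 0.14 for homozygotes, with an interval of -0.30 to 0.58. hid-RA, the longer transcript, fell by 0.67 ± 0.12 averaged over the genotypes (adjusted p = 7.90e-04) and by 0.87 in heterozygotes (adjusted p = 0.0388), where the call was lost without any 1 of 6 of the 8 libraries (adjusted p up to 0.133) and without the filter (0.0581). The shorter hid-RB, with the same start site, had a log2 fold change of 1.57 ± 1.06 (adjusted p = 0.464) from 0 to 33 counts per library. Genes most like hid over the 24 libraries were Sfp87B, CG16820 and CG30427, each with a Pearson r of 0.82.

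Summed markers of other cells differed with injury as well, but the eye and gut lists not in the same way in every genotype. The 5 hemocyte markers, of which at least 4 were detected in every library, summed to 107.7 to 163.7 CPM in wild type without injury and 69.4 to 127.3 CPM with it. In heterozygotes they summed to 99.9 to 228.2 and 72.3 to 95.3 CPM, and in homozygotes to 69.7 to 120.2 and 44.5 to 72.9 CPM. The 7 eye markers, all detected in every library, summed to 5490 to 8674 CPM in wild type without injury and 4493 to 5179 CPM with it. In heterozygotes the eye sums were 5044 to 7542 and 3387 to 5908 CPM, and in homozygotes 4553 to 5373 and 4354 to 6645 CPM. The eye median rose in homozygotes, from 4794 to 5490 CPM, and fell in the other genotypes. The 6 gut markers, all detected in every library, summed to 146.9 to 703.9 CPM in wild type without injury and 268.5 to 1227 CPM with it. In heterozygotes the gut sums were 312 to 1778 and 797.5 to 1820 CPM, and in homozygotes 388.9 to 2214 and 619.3 to 1730 CPM, so the medians were higher in homozygotes (1398 uninjured and 1402 injured) than in wild type (385.6 and 566.7). Fat body medians fell from 409.4 to 290.2 CPM in wild type, 392.2 to 263 in heterozygotes and 615 to 489 in homozygotes. Accessory gland medians fell from 8510 to 7262, 7785 to 7384 and 6374 to 5374 CPM in the same order. For fat body and accessory gland markers, injured and uninjured libraries overlapped in each genotype. Injured and uninjured libraries did not overlap for eye markers in wild type or for hemocyte markers in heterozygotes. The other eye, hemocyte and gut sums overlapped. Medians of testis, neuron and muscle markers did not move the same way in all 3 genotypes. The part of these markers in the changes of hid, Diap1 and Drice with injury, and of the gut markers in the differences of rpr and Dronc between genotypes, was not tested.

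rpr, the first antagonist to be described, was scarce, with 1 to 25 counts per library. Uninjured wild type had 1.28, 1.05, 0.617 and 0.777 CPM and injured wild type 0.152, 0.764, 0.564 and 1.02 CPM. Heterozygotes had 1.70, 1.07, 0.913 and 1.59 CPM uninjured and 1.79, 0.820, 1.61 and 1.23 CPM injured. Homozygotes had 0.997, 1.24, 0.944 and 1.87 CPM uninjured and 3.88, 1.02, 1.63 and 1.43 CPM injured. Injured homozygotes and injured wild type met at 1.02 CPM without overlapping, and the highest, 3.88 CPM, was library 1, which also had the highest neuronal marker sum; the part of that in the value was not tested.

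Injury did not change rpr past the threshold in any genotype: the log2 fold change was -0.40 ± 0.46 in wild type (adjusted p = 0.753), 0.03 ± 0.40 in heterozygotes (adjusted p = 0.978) and 0.61 ± 0.40 in homozygotes (adjusted p = 0.383). In injured flies homozygotes minus wild type was 1.48 ± 0.44, with a 95% interval of 0.58 to 2.39 (adjusted p = 0.0555). That value was 1.02 (adjusted p = 0.232) without library 1 of injured homozygotes and 1.82 (adjusted p = 0.0495) without library 4 of injured wild type. DESeq2 gave 1.51 (adjusted p = 0.0406), and the authors' deposited table gives 1.30 (adjusted p = 0.0864) in the same direction.

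Averaged over the injury states, a comparison added after the data were seen, rpr was higher in homozygotes by 0.98 ± 0.30 (adjusted p = 0.0445). This call was lost without any 1 of 11 of the 16 libraries, among them injured homozygous library 1 (0.75, adjusted p = 0.0955). Heterozygotes minus wild type was 0.77 ± 0.31 (adjusted p = 0.299). The genes most like rpr were tal-1A, tal-2A and tal-3A, all with the same Pearson r of 0.792232. They may thus carry the same counts and are not read as 3 separate genes like it.

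skl, the fourth antagonist of the cluster, did not pass the test in any comparison. Its levels were 2.59 ± 0.722 CPM (SD, n = 4) in uninjured and 1.96 ± 0.584 in injured wild type, 1.91 ± 0.387 and 1.55 ± 0.528 in heterozygotes, and 1.66 ± 0.857 and 1.46 ± 0.303 in homozygotes. The log2 fold change for injury averaged over the genotypes was -0.33 ± 0.20 (adjusted p = 0.257), and homozygotes minus wild type was -0.63 ± 0.33 in uninjured flies (adjusted p = 0.429). spel1, CRAT and Nf-YB were the genes most like it, with Pearson r of 0.73, 0.68 and 0.68.

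grim had 0 to 17 counts per library and was below the filter. Wild type had 3, 10, 1 and 2 counts uninjured and 0, 2, 0 and 6 injured. Heterozygotes had 9, 6, 3 and 0 counts uninjured and 6, 3, 8 and 0 injured. Homozygotes had 4, 7, 17 and 5 counts uninjured and 15, 5, 9 and 6 injured. In CPM every injured homozygous library, at 0.451 to 2.33, was above every injured wild type library, at 0 to 0.437, but most values lie near that of 3 counts. In a fit without the filter, homozygotes minus wild type was 2.29 ± 0.90 in injured flies (adjusted p = 0.199), and no comparison of grim passed. That value was 1.59 (adjusted p = 0.541) without library 1 of injured homozygotes and 3.52 (adjusted p = 0.140) without library 4 of injured wild type.

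The reads of grim cannot be told with certainty from those of a non-coding gene on the other strand. asRNA:CR45974 (3L, 18303431 to 18304179, plus strand) lies inside grim, whose single exon covers all its 749 bases, and the use of strand in counting is not given in the sources used here. It had 4, 2, 7 and 5 counts in uninjured wild type, 66, 40, 52 and 43 in uninjured heterozygotes and 100, 128, 105 and 160 in uninjured homozygotes. Injured wild type had 3, 1, 1 and 6 counts, injured heterozygotes 18, 61, 49 and 27, and injured homozygotes 37, 57, 131 and 143. The 3 genotypes did not overlap, in either injury state, in CPM. A further non-coding gene, lncRNA:CR45975, shares 541 exonic bases with grim on the same strand and had at most 3 counts in any library.

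asRNA:CR45974 was higher in heterozygotes than in wild type by 3.41 ± 0.38 on the log2 scale uninjured (adjusted p = 1.41e-05) and 3.62 ± 0.43 injured (adjusted p = 2.77e-05). It was higher in homozygotes than in heterozygotes by 1.28 ± 0.28 (adjusted p = 0.0161) and 1.28 ± 0.29 (adjusted p = 0.0236). Homozygotes minus wild type was 4.69 ± 0.37 (adjusted p = 6.47e-09) and 4.91 ± 0.41 (adjusted p = 1.60e-08). Of the counts on both genes, grim held 47.1% in uninjured wild type (16 counts against 18) and 6.27% in uninjured homozygotes (33 against 493). Whether counts of grim come from this transcript was not tested.

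Another non-coding gene of the cluster, named like asRNA:CR45974 after its values were seen, followed genotype in the same order. lncRNA:CR43306 (3L, 18294604 to 18295800), between hid and grim, stood at 0.583 ± 0.335 CPM (SD, n = 4) in uninjured wild type, 6.62 ± 0.999 in heterozygotes and 13.6 ± 0.717 in homozygotes. Homozygotes minus wild type was 4.45 ± 0.30 uninjured (adjusted p = 4.84e-10) and 3.70 ± 0.30 injured (adjusted p = 9.91e-09). The interval from hid to skl holds 18 annotated entries, 1 of them a transposable element, and 11 were tested. These 2 non-coding genes were the only ones called for homozygotes minus wild type in uninjured or in injured flies. Of all genes, 3.96% were called uninjured and 4.28% injured, and of those tested on 3L 7.73% and 8.10%. hid, rpr and skl, the tested antagonists in that interval, were not called in either. Averaged over the injury states, rpr was called as well, and lncRNA:CR45234 was lower in homozygotes (-0.49 ± 0.13, adjusted p = 0.0187).

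**Figure D3:**
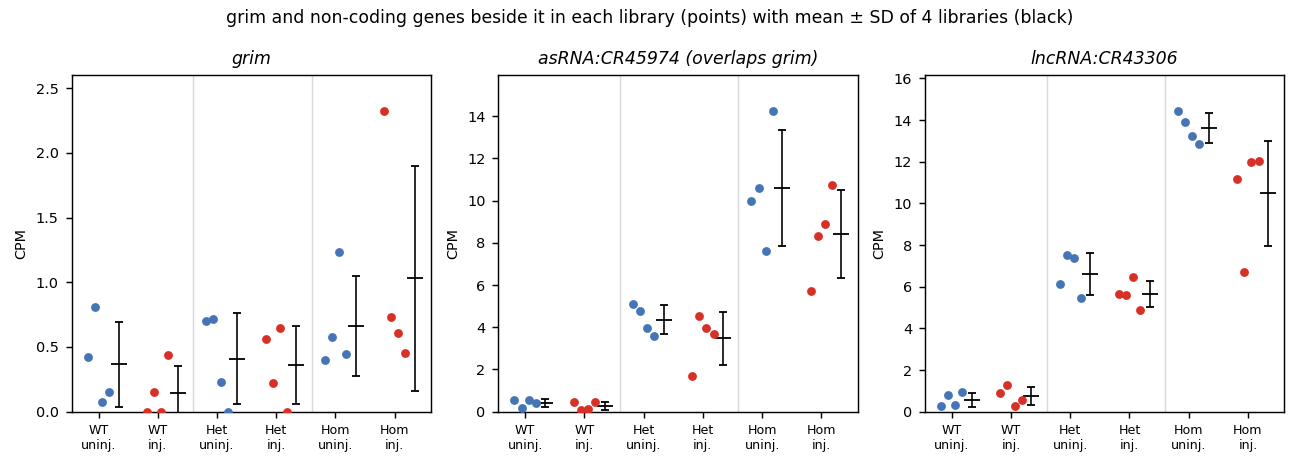
Level in CPM (vertical axes from 0) of grim, of asRNA:CR45974, which overlaps it on the other strand, and of lncRNA:CR43306, in each library (points, blue uninjured and red injured; WT wild type, Het +/Reldel, Hom Reldel/Reldel) with mean ± SD of 4 libraries in black. Both non-coding genes step up from wild type to heterozygotes to homozygotes, from 0.583 to 6.62 to 13.6 CPM for lncRNA:CR43306 in uninjured flies.

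Differences between genotypes were more frequent on the chromosome that carries these genes. Rel is on 3R, and of genes called for homozygotes minus wild type averaged over the injury states, the share was 15.4% of those tested on 3L and 13.1% on 3R, against 5.79% on 2L, 5.61% on 2R and 3.84% on X. 6 of the 8 cell death genes are on 3L and 1 is on 3R. The labels do not say how much of chromosome 3 around the deletion differs from the wild type line, so the loss of Rel and other sequence differences on that chromosome cannot be told apart for Diap1-RD, Dronc, rpr, grim and its neighbours.

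Of the 3 caspases, Drice was called for injury and Dronc for genotype. Drice, an effector caspase, had 13.4, 14.8, 12.0 and 13.5 CPM in uninjured homozygotes and 16.4, 20.0, 16.7 and 18.3 CPM in injured ones. In wild type it had 14.8, 13.6, 15.7 and 14.3 CPM uninjured and 14.6, 14.7, 20.2 and 16.8 CPM injured. In heterozygotes it had 15.8, 16.3, 15.1 and 14.8 CPM uninjured and 17.0, 16.8, 14.7 and 18.3 CPM injured. Injured and uninjured libraries were apart only in homozygotes.

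Drice rose by 0.41 ± 0.11 on the log2 scale in homozygotes (adjusted p = 0.0334) and by 0.23 ± 0.07 averaged over the genotypes (adjusted p = 0.0160). Its changes in wild type (0.18 ± 0.12, adjusted p = 0.522) and heterozygotes (0.11 ± 0.11, adjusted p = 0.682) did not pass, and the response of homozygotes minus that of wild type was 0.23 ± 0.16, with a 95% interval of -0.10 to 0.57 (adjusted p = 0.934). The homozygous call was lost without any 1 of 4 libraries (uninjured 1, 3 and 4 and injured 2; adjusted p = 0.0726 to 0.0970) and with only the 8 homozygous libraries fitted (adjusted p = 0.155). Without injured library 1 it was 0.45 (adjusted p = 0.0280). The authors' deposited table gives 0.43 (adjusted p = 0.263). Genes most like Drice were CG5853, lbk and bark, with Pearson r of 0.79, 0.76 and 0.74.

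Dronc, the initiator caspase, was lower in homozygotes. Its uninjured libraries had 16.0, 14.4, 15.9 and 19.0 CPM in wild type, 13.6, 13.4, 14.4 and 10.6 CPM in heterozygotes and 13.0, 10.4, 11.3 and 12.0 CPM in homozygotes. Its injured libraries had 17.5, 14.0, 21.1 and 16.1 CPM in wild type, 15.6, 11.5, 15.6 and 15.5 CPM in heterozygotes and 13.8, 13.2, 14.2 and 15.2 CPM in homozygotes. Uninjured wild type and homozygotes did not overlap; the injured ones did.

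Homozygotes minus wild type was -0.49 ± 0.14 on the log2 scale for Dronc in uninjured flies (adjusted p = 0.0495), -0.28 ± 0.14 in injured flies (adjusted p = 0.326) and -0.38 ± 0.10 averaged over them (adjusted p = 0.0137). The uninjured call was at the threshold: it was lost without any 1 of 7 of the 8 libraries (adjusted p up to 0.146) and without the filter (0.0635), and the authors' deposited table gives 0.177. The averaged value kept its call without each of the 16 libraries in turn, with adjusted p-values of 0.00713 to 0.0373. Injury did not move Dronc past the threshold (averaged 0.17 ± 0.08, adjusted p = 0.149). CG42825, CG15099 and CG12004 were most like Dronc, with Pearson r of 0.77, 0.76 and 0.74.

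Dcp-1, the other effector caspase, passed no test. Its means lay between 4.73 ± 1.18 CPM (SD, n = 4) in uninjured heterozygotes and 7.27 ± 0.869 CPM in injured homozygotes, and the log2 fold change for injury averaged over the genotypes was 0.18 ± 0.14, with a 95% interval of -0.12 to 0.48 (adjusted p = 0.409). Its lowest library, 3.05 CPM, and a library at 8.46 CPM were both of injured wild type. Dcp-1 shares 239 exonic bases with pita on the opposite strand, which had 35.1 to 43.9 CPM as group means, so some of its reads are uncertain. Cka, mlt and CycE were most like Dcp-1, with Pearson r of 0.79, 0.74 and 0.71.

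**Figure D4:**
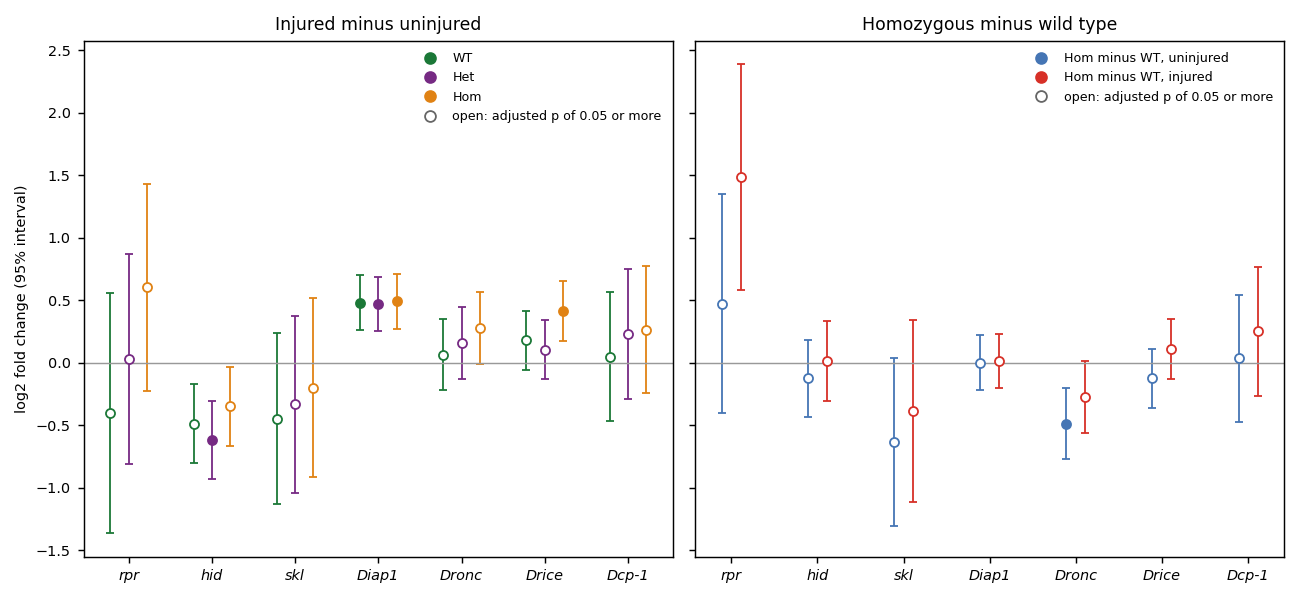
Log2 fold changes of the 7 tested genes with 95% intervals from the fit across all genes (vertical axis), for injury in each genotype (left; WT wild type, Het +/Reldel, Hom Reldel/Reldel) and for homozygotes minus wild type (right); filled points passed an adjusted p of 0.05. Diap1 lies between 0.47 and 0.49 in all 3 genotypes after injury and near 0 between genotypes.

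Counted together, injury called 1 of the 7 tested genes in wild type (Diap1 up; 3.79% of all genes were called), 2 in heterozygotes (Diap1 up, hid down; 4.74%) and 2 in homozygotes (Diap1 and Drice up; 5.86%). Averaged over the genotypes it called 3 of 7 (Diap1 and Drice up, hid down), against 18.3% of all genes. Libraries did not overlap between injured and uninjured for 2 of 7 genes in wild type (13.0% of all genes), 2 in heterozygotes (8.32%) and 3 in homozygotes (11.6%). The median log2 fold change of the 7 was 0.17 in the averaged comparison and -0.01 over all genes.

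Between genotypes, 1 of 7 was called for uninjured homozygotes minus wild type (Dronc down; 3.96% of all genes) and 0 of 7 for injured ones (4.28%), where 1, rpr, had an unadjusted p under 0.05 and DESeq2 called it. For heterozygotes minus wild type 0 of 7 were called uninjured (0.498%) and injured (0.296%), with 1 at an unadjusted p under 0.05 in each and 0 called by DESeq2. For homozygotes minus heterozygotes 0 of 7 were called uninjured (1.38%) and injured (0.909%), with 0 at an unadjusted p under 0.05 and 0 by DESeq2. Averaged over the injury states, 2 of 7 were called for homozygotes minus wild type (rpr up, Dronc down; 9.11%) and 0 for heterozygotes (1.49%), where 2 had an unadjusted p under 0.05 and DESeq2 called 0.

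The injury response differed between genotypes for 0 of the 7 genes in either mutant, and for 0% of all genes tested. Of all genes, 363 had an unadjusted p under 0.05 for heterozygotes minus wild type and 647 for homozygotes minus wild type in edgeR's test, and DESeq2 called 0 and 3. None of the 7 had an unadjusted p under 0.05 in either, and DESeq2 called none of them. These contrasts share their wild type libraries with the others.

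The wider death machinery was followed through 46 further genes, all of which passed the filter. After injury, averaged over the genotypes, 14 of 46 rose and 3 fell, while 11.6% of all genes tested rose and 6.71% fell; the median log2 fold change was 0.12, against -0.01 over all genes. Within genotypes 4 of 46 rose in wild type (3.35% of all genes rose), 2 in heterozygotes (3.24%) and 9 in homozygotes (4.71%), and 0 fell in any of them (0.433%, 1.5% and 1.15% of all genes fell). Without library 4 of injured wild type 3 rose in wild type, and without library 1 of injured homozygotes 9 rose in homozygotes and 13 in the averaged comparison, which DNaseII no longer passed (0.34, adjusted p = 0.0641).

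Of 6 other caspases and apoptosome genes, 4 rose in the averaged comparison. Within genotypes 2 of the 6, Strica and Dredd, were called in wild type, and 0 were called in heterozygotes or in homozygotes. The median log2 fold change of the 6 was 0.72 in wild type, 0.52 in heterozygotes and 0.50 in homozygotes. Strica, a caspase with a long prodomain, rose by 1.14 ± 0.17 on the log2 scale, from 2.76 to 6.03 CPM (adjusted p = 4.22e-05), and by 1.80 ± 0.31 in wild type (adjusted p = 8.13e-04). Dredd, the caspase of the Imd pathway, rose by 0.35 ± 0.10 in wild type (adjusted p = 0.0485), a call lost without injured library 4 (0.34, adjusted p = 0.116). Averaged over the genotypes Dredd rose by 0.30 (adjusted p = 6.68e-04), and it kept that call without the same library (adjusted p = 0.00151).

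Of 12 genes of the TNF and JNK pathways upstream of cell death, 5 rose and 2 fell. puc, the phosphatase induced by JNK signalling, rose by 0.85 ± 0.18 in wild type (adjusted p = 0.00518), 0.86 ± 0.18 in heterozygotes (adjusted p = 0.00439) and 1.23 ± 0.18 in homozygotes (adjusted p = 8.26e-05). Jra, the fly Jun, rose by 0.47 ± 0.11 in wild type (adjusted p = 0.0199) and 0.63 ± 0.11 in heterozygotes (adjusted p = 0.00134). Jra also rose in homozygotes, by 0.54 (adjusted p = 0.00505), a value named after it was seen. The 2 that fell, named after their values were seen, were egr, the TNF ligand (-0.21 ± 0.06, adjusted p = 0.0244), and bsk, JNK itself (-0.22 ± 0.07, adjusted p = 0.0357).

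Of 6 genes upstream in DNA damage, 2 rose and 1 fell. Xrp1, a stress-induced transcription factor, rose by 0.62 ± 0.10 averaged (adjusted p = 9.91e-05) and by 0.84 ± 0.18 in homozygotes (adjusted p = 0.00422). The gene that fell, named after its value was seen, was tefu, the ATM kinase (-0.25 ± 0.07, adjusted p = 0.0117).

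Of the genes for clearing dead cells, DNaseII, a lysosomal nuclease, and drpr, the engulfment receptor, differed by genotype as well. In homozygotes DNaseII rose after injury by 1.15 ± 0.22 (adjusted p = 0.00174) and drpr by 0.73 ± 0.15 (adjusted p = 0.00331). In injured flies homozygotes minus wild type was 1.35 ± 0.22 for DNaseII (adjusted p = 3.25e-04) and 0.65 ± 0.15 for drpr (adjusted p = 0.00993); these were the 2 of 46 called there, a share near the 4.28% of all genes called. Without library 4 of injured wild type the call of drpr was lost (0.59, adjusted p = 0.0524), and without library 1 of injured homozygotes both were called (DNaseII 1.26, adjusted p = 0.00170; drpr 0.47, adjusted p = 0.0454). For injured homozygotes minus heterozygotes 1 of 46 was called, DNaseII (1.01, adjusted p = 0.0190), against 0.909% of all genes. That call was lost without library 1 of injured homozygotes (0.92, adjusted p = 0.0712). For homozygotes minus wild type averaged over the injury states, 4 of 46 were higher and 1 was lower. Of all genes, 4.62% were higher and 4.49% lower. Those with the smallest adjusted p were DNaseII (0.81, adjusted p = 9.94e-04), Cyt-c-p (0.58, 0.00509), drpr (0.44, 0.00826) and Fadd (-0.33, 0.0316). The call of Fadd was lost without library 4 of injured wild type (-0.31, adjusted p = 0.0658). None of 6 other IAPs and their regulators and none of 6 Bcl-2 family and mitochondrial genes was called for injury in any genotype or averaged.

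**Figure D5:**
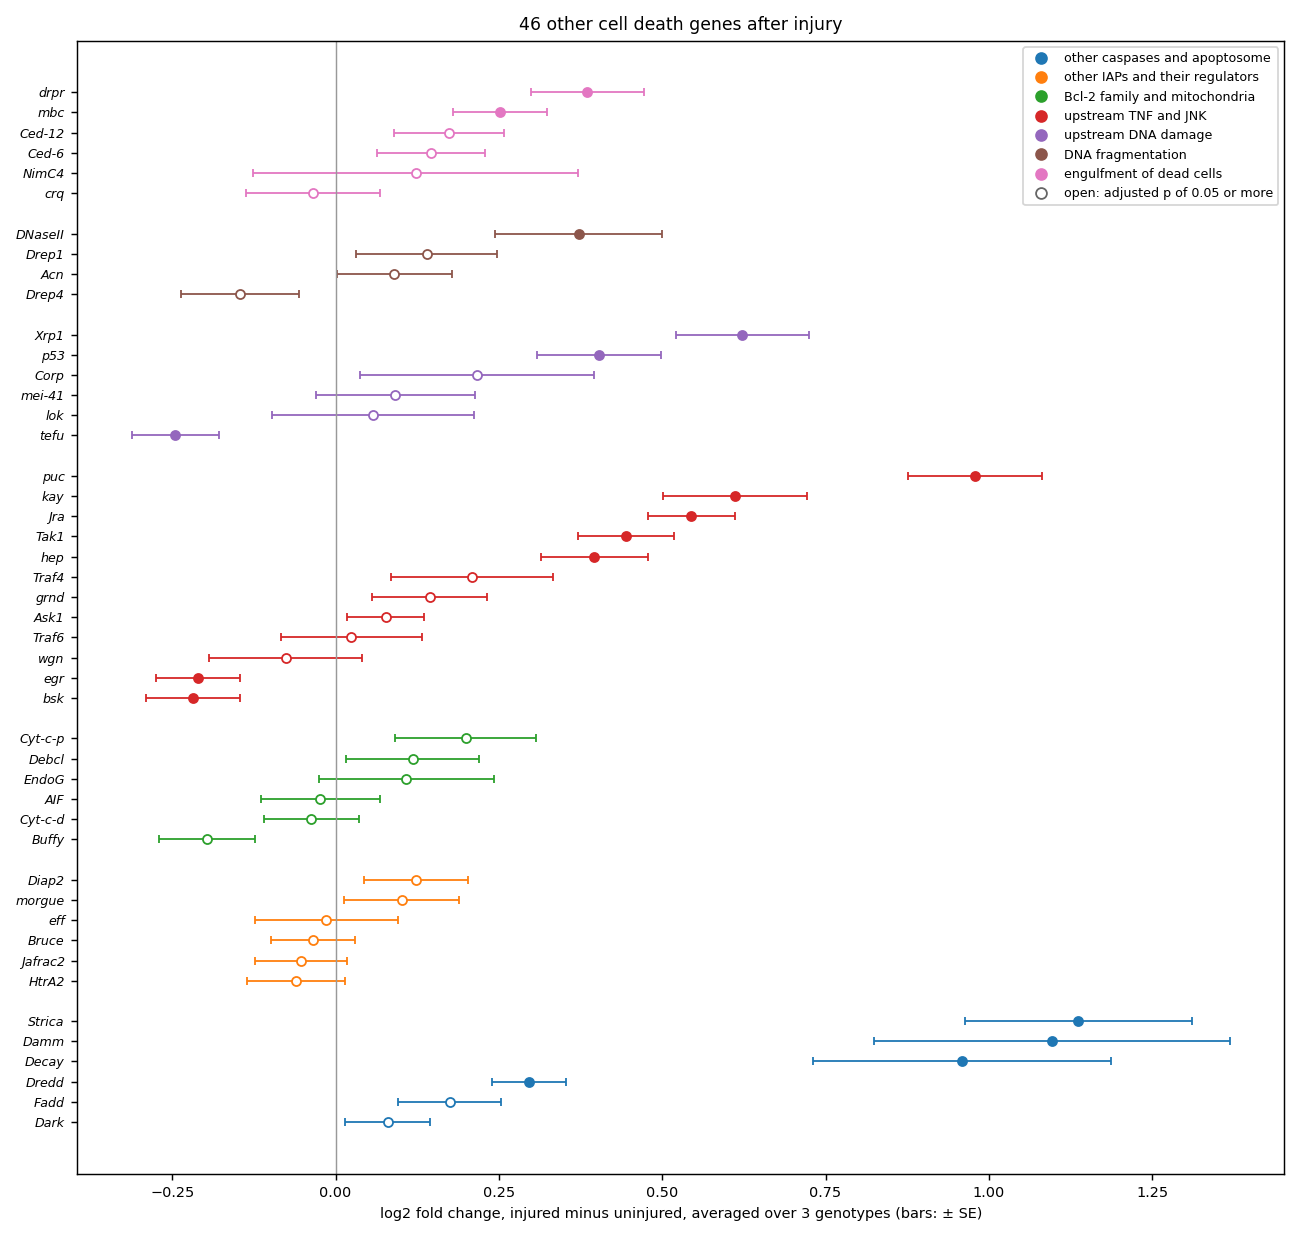
Log2 fold change of 46 other cell death genes for injury averaged over the 3 genotypes (horizontal axis, points with bars of ± SE), grouped by function; filled points passed an adjusted p of 0.05. 14 genes rose and 3 fell, and no gene of the IAP regulators or of the Bcl-2 and mitochondrial group passed.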

How the data were processed

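RNA-seq of whole male flies was deposited as 1 table of estimated counts per gene and 1 per transcript, which the authors made with RSEM 1.2.22 and STAR 2.4.2a on build dm6, per the submitters' processing notes; all values in them are whole numbers. The authors' deposited comparison tables give log2 fold changes and adjusted p-values, made with edgeR 3.10.5 per the same notes; their signs were turned to injured minus uninjured and mutant minus wild type. Whether counting used strand is not given in the sources used here. Groups came from the labels, and 0 columns belonged to other samples.

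edgeR 4.0.16 (R 4.3.3) was run on the counts of all 24 libraries with TMM scaling, filterByExpr and group means (18 residual degrees of freedom), which left 13868 of 17768 genes and 26667 of 34880 transcripts. Contrasts were tested with the quasi-likelihood test and p-values were adjusted over all rows by Benjamini-Hochberg, with calls at 0.05. The code was tested on simulated data. DESeq2 1.42.0, other scalings and filters, fits of only the groups compared, a replicate block and leaving out each library were tried as alternatives. Values of grim come from a fit without the filter. Coordinates are from Ensembl release 115. Genes most like a member had the highest Pearson r of log2(CPM + 0.5) among genes with a mean of at least 5 CPM. The 8 genes and the wider lists were chosen with earlier results of these data known. In the wider lists, up to 4 called genes with the smallest adjusted p were named per comparison, unless said otherwise.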

Additional observations from a re-analysis of the deposited data

Results flagged for a closer look

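In 3 of 48 sets of 4 libraries tested, for 8 genes in 6 groups, 1 library lay far from the other 3, by a gap above Dixon's 95% critical value for the share of the range; chance flags about 1 in 20. hid was lowest in library 1 of injured heterozygotes, at 5.74 CPM against 8.05 CPM in the nearest. grim was highest in library 1 of injured homozygotes, at 2.33 CPM against 0.731 CPM in the nearest. Dronc was lowest in library 2 of injured heterozygotes, at 11.5 CPM against 15.5 CPM in the nearest.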

How the results depend on the processing

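Alternative fold changes were counted for the tested genes, for grim with DESeq2 only, and for the transcripts Diap1-RA, Diap1-RB, Diap1-RD and hid-RA. Other transcripts are not in these counts. Of the 2067 alternative values, 2020 kept their call or lack of one, 42 lost the call and 5 gained one. None of the 357 alternatives of called values changed sign, while 123 of the 1710 alternatives of values not called did. Leaving out 1 library at a time, the genes called after injury were 0 to 1 in wild type (main 1), 1 to 2 in heterozygotes (main 2), 1 to 2 in homozygotes (main 2) and 3 to 3 averaged (main 3). For homozygotes minus wild type they were 0 to 1 uninjured (main 1), 0 to 1 injured (main 0) and, averaged, 1 to 2 genes and 1 to 2 transcripts (main 2 of each). Fitting only the groups compared called 0 after injury in heterozygotes and in homozygotes and 0 for uninjured homozygotes minus wild type, as did no filter there (0). DESeq2 called 1, rpr, for injured homozygotes minus wild type. The cause was not tested.

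Replicate numbers did not pair the libraries: same-numbered libraries had correlated deviations over 0.1 in 9 of 28 pairs, and in 4 of the 28 comparisons the library with the same number gave the highest correlation. With the replicate block, 1 gene was still called after injury in homozygotes (Diap1) and 1 for homozygotes minus wild type averaged (Dronc). The calls lost there were those of Drice (0.41, adjusted p = 0.0538) and rpr (0.95, adjusted p = 0.0541). For hid-RA the call after injury in heterozygotes was lost as well (-0.89, adjusted p = 0.0667).

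Over all genes, fits of only the groups compared called 278 against 658 after injury in heterozygotes, 353 against 813 in homozygotes and 284 against 594 for injured homozygotes minus wild type. For heterozygotes minus wild type they called 33 against 69 uninjured and 21 against 41 injured, and for homozygotes minus heterozygotes 95 against 191 and 57 against 126. DESeq2 called 141 and 72 for heterozygotes minus wild type, and 388 for uninjured homozygotes minus heterozygotes. Leaving out 1 library gave 302 to 450 genes after injury in wild type (main 525), 380 to 1495 in heterozygotes and 484 to 1582 in homozygotes. It gave 33 to 150 for heterozygotes minus wild type uninjured, 24 to 39 injured, and 107 to 607 for homozygotes minus heterozygotes uninjured. At 1 to 25 counts of rpr and 0 to 17 of grim per library, depth limits what can be detected for both.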

Other observations

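Beside Strica and Dredd, 2 further caspases of the wider lists rose after injury averaged over the 3 genotypes, and they are named here after their values were seen. Damm rose by 1.10 ± 0.27 on the log2 scale, from 9.36 to 19.7 CPM (adjusted p = 0.00635 by edgeR's quasi-likelihood test), and Decay rose by 0.96 ± 0.23, from 11.9 to 22.6 CPM (adjusted p = 0.00455). Other genes that rose with puc and Jra were kay, the fly Fos, by 0.61 ± 0.11 (adjusted p = 2.96e-04), and the kinases Tak1, by 0.44 ± 0.07 (adjusted p = 1.13e-04), and hep, by 0.40 ± 0.08 (adjusted p = 0.00130). p53 rose by 0.40 ± 0.09, from 10.2 to 13.6 CPM (adjusted p = 0.00406).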
